A study of Mus musculus with 7 samples.

Results

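The genes described are 7 mouse genes of arginine handling: Slc7a2, Arg1, Arg2, Nos2, Ass1, Asl and Odc1. They carry, split or rebuild the amino acid arginine or, in the case of Odc1, use the ornithine made from it. They were chosen by gene symbol, and all 7 were found among the 32285 genes of the deposited tables. Their levels were read in single cells of an NSCG-mCherry glioma, a mouse brain tumour line with EGFRvIII and without Arf/Ink4a, grown in wild-type C57BL/6 mice of 7 to 10 weeks. Each of the 7 libraries holds pooled tumours (2 or more mice), taken around day 14, so a library is 1 replicate and single mice cannot be told apart. The groups were untreated (UT, 1 library), an IgG2b isotype antibody at 10 mg/kg (IgG, 2 libraries), and BP (2 libraries), which joined B20, an anti-VEGF antibody (5 mg/kg), with anti-PD-L1 (10 mg/kg). The antibodies were given every 3 days, from day 6 to 7 after implantation. A further library had BP with IPI-145 by mouth at 10 mg/kg each day (BPI), and another had a CD40 agonist at 100 µg per dose, 2 doses 5 days apart (CD40). Isotype controls of the BPI experiment also had the gavage diluent, and the labels do not say which IgG library these are. The labels mention a dendritic cell vaccine but do not say if the CD40 mice had it. UT, BPI and CD40 have 1 library each, so their differences from IgG have no replicate check of their own.

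Arginine enters cells through cationic amino acid transporters, and Slc7a2 encodes CAT2, the transporter of activated macrophages. Arginase 1 (Arg1, in the cytosol) and arginase 2 (Arg2, in mitochondria) split arginine to ornithine and urea, and ornithine decarboxylase (Odc1) commits ornithine to polyamines. Inducible nitric oxide synthase (Nos2) uses the same arginine to make nitric oxide and citrulline, and argininosuccinate synthase (Ass1) and lyase (Asl) rebuild arginine from that citrulline. In mouse macrophages Arg1 is a classic response to interleukin-4 and to tumour signals, whereas Nos2 and Ass1 are classic responses to interferon-gamma and bacterial products.

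In GRCm38, Arg1 (ENSMUSG00000019987) lies at chr10:24915221-24927484 on the minus strand, Nos2 at chr11:78920787-78960254 on the plus strand, and Ass1 at chr2:31470207-31520672 on the plus strand. Slc7a2 lies at chr8:40862396-40922308 and Arg2 at chr12:79130777-79156301, both on the plus strand. Exons of Arg2 overlap exons of Gm48780 and Vti1b on the other strand, and Slc7a2 overlaps Gm26584 in the same way, so their counts are uncertain where counting did not use strand. Asl lies at chr5:130011258-130029247 on the minus strand and Odc1 at chr12:17544794-17551505 on the plus strand. The RefSeq promoter table held 2 of the 7 genes, and the 250 bases before the RefSeq start of each are shown because Ass1 varied among libraries in phagocytes and tumour cells alike, whereas Odc1 was present in most tumour cells of every library. The RefSeq starts lie inside the gene spans given above, so the last bases of each window are within those spans. The Ass1 window is chr2:31470020-31470269 and the Odc1 window is chr12:17544623-17544872, both plus strand, GRCm38.p6, written 5′ to 3′, with CACGTG in capitals.
Ass1: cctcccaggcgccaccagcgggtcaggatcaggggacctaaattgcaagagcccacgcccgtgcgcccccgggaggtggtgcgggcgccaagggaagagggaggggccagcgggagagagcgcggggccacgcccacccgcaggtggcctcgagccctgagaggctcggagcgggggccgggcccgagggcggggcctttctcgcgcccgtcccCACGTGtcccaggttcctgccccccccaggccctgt
Odc1: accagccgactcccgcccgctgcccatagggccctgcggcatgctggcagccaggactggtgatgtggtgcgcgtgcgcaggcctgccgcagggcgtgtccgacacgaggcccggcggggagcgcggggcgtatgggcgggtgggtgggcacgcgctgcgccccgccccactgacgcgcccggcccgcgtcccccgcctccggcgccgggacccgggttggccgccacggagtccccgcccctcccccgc
The windows are rich in G and C, at 75.6% for Ass1 and 80% for Odc1, against a median of 52.4% over 32536 windows of the same length. Searched on both strands, the Ass1 window held 1 CACGTG, 36 bases before the RefSeq start, which contains the shorter ACGTG on both strands. CACGTG was in 6.04% and ACGTG in 16.7% of all windows, and the search for CACGTG was added after the values were seen. Neither window held the STAT motif TTCNNNGAA, the STAT6 core, the interferon-stimulated response element core, the AP-1 motif TGANTCA or TATAAA, which were in 7.04%, 5.89%, 2.98%, 6.73% and 12.3% of all windows.

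After filters 48588 cells were kept, from libraries of 68997476 to 186793886 total UMIs (unique molecular identifiers, the count of captured transcripts). Clustering without the 7 members and without 55 other arginine genes gave 13 named classes. Of these, 3609 cells were monocyte/macrophage-like, 2069 microglia-like and 31544 tumour-like, and 5814 cells stayed unnamed. In library order UT, IgG_1, IgG_2, BP_1, BP_2, BPI and CD40 the monocyte/macrophage-like cells numbered 577, 78, 68, 1809, 266, 641 and 170. Monocyte and macrophage markers summed to 16037 to 21082 CPM (UMIs scaled to a common total for each class and library) in this class, and microglial markers to 444 to 3100 CPM, against 10997 to 16215 CPM in microglia-like cells. BP_1 stands apart: 1640 of its 1809 monocyte/macrophage-like cells form a cluster of their own, led by Ccl8, Ccl24, Chil3, Mrc1 and Mmp12, and it has 6 microglia-like cells. Nearly all other monocyte/macrophage-like cells lie in a cluster shared by all libraries, to which BP_1 gives 169 cells, and the main results that rest on BP_1 are also given without it or for the shared cluster. The 169 cells are not of the same make-up as those of other libraries: 90 fell in a sub-cluster with Ace and Treml4 and 36 in one with Xcr1. No gene measured here checks antibody treatment, so the BP label of BP_1 could not be tested. In the shared cluster the dendritic markers summed to 1098 CPM in BP_1 and 96.3 to 236 CPM elsewhere. Library pairs shared 0 to 21 cell barcodes. By their names, IgG_1, BP_2 and BPI run consecutively and so do CD40 and IgG_2, whereas BP_1 and UT stand alone; the labels do not say whether this marks a batch, and ratios within these sets are given for monocyte/macrophage-like cells.

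In monocyte/macrophage-like cells Arg1, Slc7a2, Arg2, Nos2 and Ass1 varied widely among libraries, and Asl and Odc1 varied little in the class as a whole. UT and BP_1 held the cells richest in Arg1 and Slc7a2, UT held those richest in Ass1, and Nos2 was highest in BPI, BP_1 and UT and near 0 in IgG and CD40. The class differed in make-up between libraries, as given below, so these levels compare unlike mixes of cells. No member passed an adjusted p of 0.05 in any comparison of groups in the main edgeR quasi-likelihood fits, which had no block. In these fits no gene at all did so for BP, BPI or CD40 against IgG in this class.

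**Figure D1:**
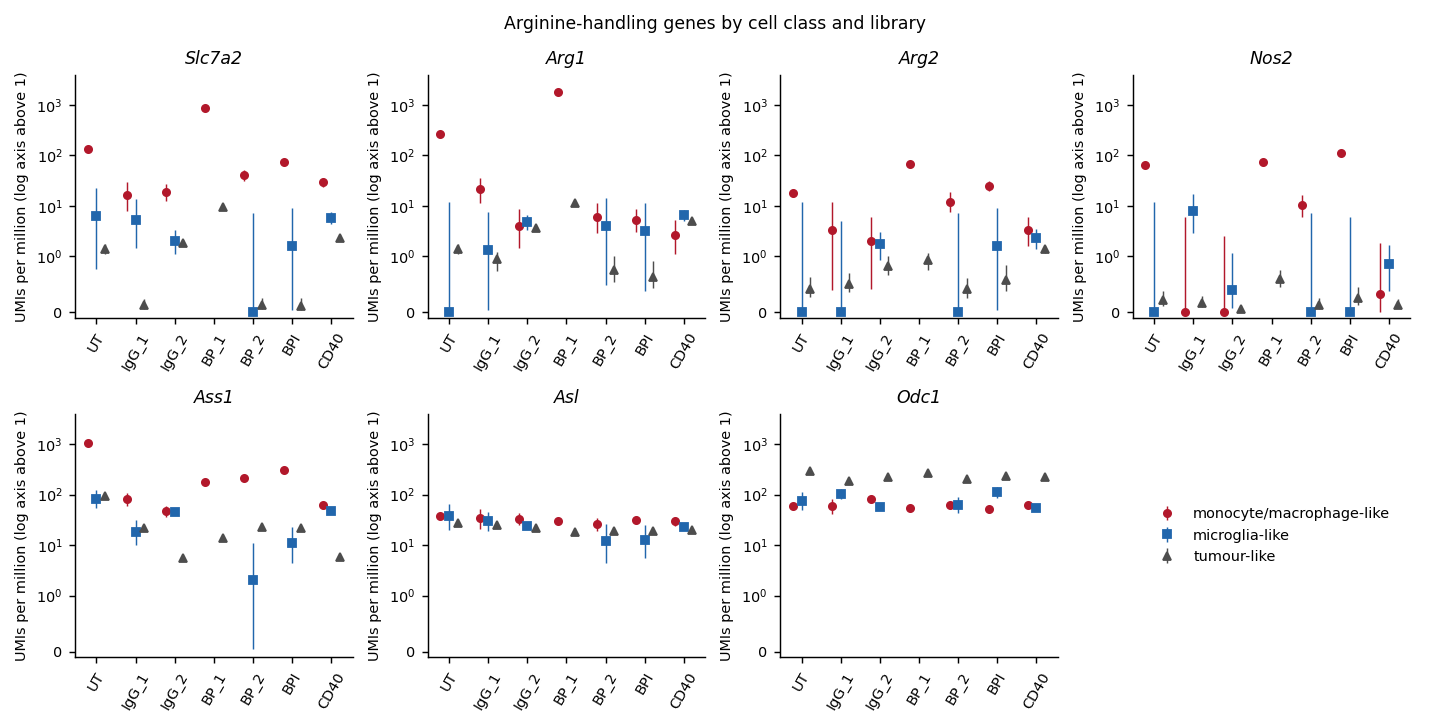
Level of each of the 7 genes in CPM (an axis that is linear up to 1 and logarithmic above) by library and cell class, with 1 point per library and bars for the exact 95% interval of counting error. In monocyte/macrophage-like cells Arg1 spans 2.61 to 1777 CPM and Asl only 26.2 to 36.9 CPM.

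Slc7a2, the arginine transporter, was at 132 CPM in UT, 16.3 and 18.9 CPM in IgG_1 and IgG_2, 886 and 40.1 CPM in BP_1 and BP_2, 72.4 CPM in BPI and 29.4 CPM in CD40. Every other library was above both IgG libraries in CPM, and BP_1 was far above the rest. The share of cells with a UMI did not follow this order, at 32.4% in UT, 8.97 and 25% in IgG, 75.2 and 11.7% in BP, 17.3% in BPI and 24.7% in CD40. Thinned to 1000 UMIs a cell, it was 7.63, 2.56, 0, 42.0, 2.63, 6.08 and 1.18% in library order. Against IgG the log2 difference was 4.67 ± 1.21 (SE) for BP, 2.50 ± 1.27 for BPI and 3.23 ± 1.25 for UT. With edgeR's test the adjusted p was 0.321, 0.539 and 0.367. Without BP_1 the BP difference was 1.35 ± 0.32, and BP_2 was 2.46-fold above IgG_1, its neighbour by name (95% counting interval 1.26 to 5.37). In BP_1 the separate cluster was at 945 CPM and the shared cluster at 79.2 CPM, the latter below UT and above the other libraries.

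Arg1, the cytosolic arginase, was at 264 CPM in UT, 21.2 and 4.05 CPM in IgG, 1777 and 6.08 CPM in BP, 5.28 CPM in BPI and 2.61 CPM in CD40. The 2 BP libraries stood on either side of IgG_1, so BP and IgG overlap. The log2 difference of BP from IgG was 6.28 ± 2.06 (SE; edgeR adjusted p = 0.455) and turned to −0.67 without BP_1. That of UT from IgG was 4.91 ± 2.06 (edgeR adjusted p = 0.403). Within the set of libraries with consecutive names, Arg1 was lower in BP_2 than in IgG_1, at a ratio of 0.287 (95% counting interval 0.113 to 0.708), and likewise in BPI, at 0.249 (0.114 to 0.558). These ratios rest on 13 UMIs in 5 cells of IgG_1, 10 UMIs in 6 cells of BP_2 and 17 UMIs in 12 cells of BPI. The intervals treat UMIs of a cell as independent. Against IgG_2, at 4.05 CPM, both BP_2 and BPI were higher. In BP_1 Arg1 was at 1897 CPM in the separate cluster and 123 CPM in the shared cluster. Of all Arg1 UMIs in cells, 89.9% in BP_1 and 93.8% in UT were in monocyte/macrophage-like cells. In the other libraries most were in the far more numerous tumour-like cells, 79.8 and 87.2% in IgG, 77.8% in BP_2, 56.6% in BPI and 82.9% in CD40.

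The level of Arg2, the mitochondrial arginase, was 17.8 CPM in UT, 3.26 and 2.03 CPM in IgG, 66.9 and 12.2 CPM in BP, 25.2 CPM in BPI and 3.26 CPM in CD40. UT, BPI and both BP libraries were above both IgG libraries, and CD40 was level with IgG_1. The log2 difference from IgG was 4.06 ± 0.91 (SE) for BP, 3.83 ± 0.996 for BPI and 3.19 ± 0.99 for UT, with edgeR adjusted p of 0.282, 0.211 and 0.272. Without BP_1 the BP difference was 2.49 ± 0.61. Against the 2 UMIs of IgG_1, BP_2 was at a ratio of 3.73 (95% counting interval 0.906 to 32.9) and BPI at 7.71 (2.07 to 64.8).

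Nos2, the inducible nitric oxide synthase, had no UMI in the monocyte/macrophage-like cells of IgG_1 or IgG_2 and was at 0.326 CPM in CD40. It was at 64.4 CPM in UT, 74.3 and 10.3 CPM in BP_1 and BP_2, and 113 CPM in BPI. These 4 libraries are all above IgG and CD40. Set against the mean of the IgG floors (3 counts per library, 4.89 and 2.03 CPM, mean 3.46 CPM), Nos2 was at least 18.6-fold higher in UT, 21.5-fold in BP_1 and 32.7-fold in BPI. In BP_2 it rested on 17 UMIs (95% counting interval 6.02 to 16.6 CPM). With edgeR's test the adjusted p was 0.116 for UT, 0.279 for BP and 0.119 for BPI against IgG. BPI was 10.9-fold above BP_2 (95% counting interval 6.74 to 19.0), a ratio between 2 libraries and not a test of the added drug. In BP_1 Nos2 was at 78.5 CPM in the separate cluster and 16.7 CPM in the shared cluster.

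Ass1, which makes argininosuccinate from citrulline, was at 1044 CPM in UT, 81.6 and 46.6 CPM in IgG, 175 and 213 CPM in BP, 314 CPM in BPI and 61.4 CPM in CD40. UT was highest, BPI next, and both BP libraries lay above both IgG libraries and CD40. In the shared cluster alone BP_1 was at 133 CPM and in 43.8% of cells, close to the IgG shares of 43.6 and 42.6%, and its separate cluster was at 178 CPM and 58.4%. The log2 difference from IgG was 1.71 ± 0.45 (SE) for BP, 2.79 ± 0.52 for BPI and 4.38 ± 0.57 for UT, with edgeR adjusted p of 0.324, 0.129 and 0.0685. Within the set of consecutive names, BP_2 was 2.61-fold (1.94 to 3.58) and BPI 3.84-fold (2.89 to 5.21) above IgG_1. BPI was 1.47-fold (1.30 to 1.67) above BP_2, and CD40 was 1.32-fold IgG_2 (0.994 to 1.76), where the counting interval reaches 1.

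Asl, which completes the rebuilding of arginine, was at 36.9 CPM in UT, 34.3 and 33.1 CPM in IgG, 29.8 and 26.2 CPM in BP, 31.7 CPM in BPI and 29.7 CPM in CD40. Both BP libraries were below both IgG libraries, by a small margin. Odc1, the first enzyme of polyamine synthesis, was at 58.5, 58.7, 81.7, 54.7, 62.7, 51.0 and 63.0 CPM in library order, and BP and IgG overlapped. In the shared cluster alone Odc1 was at 19.2 CPM in BP_1 and 51.1 to 81.7 CPM elsewhere. Free RNA was estimated at 20.4 to 55.1% of the Odc1 UMIs in this class, so the level in the cells themselves is below these values. For Ass1 the free-RNA part was 1.18 to 2.67%, and for Arg1 it was 0.381 to 18.9%.

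Over the 7 members, 4 (Slc7a2, Arg2, Nos2 and Ass1) had both BP libraries above both IgG libraries, where 14.4% of the 11836 genes tested did. Asl alone had both below, where 21.1% of genes did, and Arg1 and Odc1 overlapped. At an unadjusted p under 0.05 by edgeR, 5 of 7 members passed for BP against IgG, where 8.31% of genes did. For BPI 3 of 7 passed (10.9% of genes), for CD40 0 of 7 (1.06%), for BPI against BP 1 of 7 (1.97%) and for UT 5 of 7 (12% of 12533 genes). At an adjusted p under 0.05 none of the 7 was called in these comparisons, with 0% of genes called for BP, BPI, CD40 and BPI against BP, and 0.00798%, which is 1 gene, for UT. The lowest adjusted p of a member by edgeR was 0.279 for BP, 0.119 for BPI and 0.0685 for UT.

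The calls changed with the libraries and the tool. Without BP_2, the fit called 416 of 12354 genes (3.37%) for BP against IgG, now BP_1 alone, and 4 of 7 members among them: Slc7a2, Nos2, Arg1 and Arg2, with edgeR adjusted p of 0.000777, 0.00216, 0.00224 and 0.00277. BPI then had 4 members called (Nos2, Arg2, Ass1 and Slc7a2), where 3.43% of genes were, and UT 5, where 9.18% of 12772 genes were. With BP_2 left out each group but IgG is 1 library, so these p-values assume that it varies as the 2 IgG libraries do. Without IgG_1, Nos2 passed for BP at an adjusted p of 0.0295, for BPI at 0.00787 and for UT at 0.00464, and Ass1 passed for UT at 0.0160, all by edgeR, which then called 0.966%, 1.68% and 2.03% of genes for BP, BPI and UT. In that fit BP alone has replicates, and IgG_2, BPI and UT are assumed to vary as the BP libraries do. Without IgG_2 edgeR called 0 genes for BP, 0 for BPI and 2 for UT, and without BP_1 0, 0 and 87, so the calls depended on which libraries were kept. The UT calls without BP_1 held Nos2, Slc7a2 and Ass1, at log2 differences from IgG of 10.5, 3.13 and 4.29. In that fit, too, each group but IgG is 1 library. DESeq2 on the full set called 1.11% of genes for BP, 1.73% for BPI and 1.8% for UT. Its calls held Arg2 and Nos2 for BP (adjusted p of 0.0167 and 0.0466), Arg2, Ass1 and Nos2 for BPI (0.0488, 0.00158 and 0.0114), and Ass1 and Nos2 for UT (1.60e-09 and 0.0232). In the shared cluster only, edgeR called Nos2 and Ass1 for UT, with adjusted p of 0.0240 and 0.0475 where 0.253% of 11047 genes were called, and no member for BP.

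**Figure D2:**
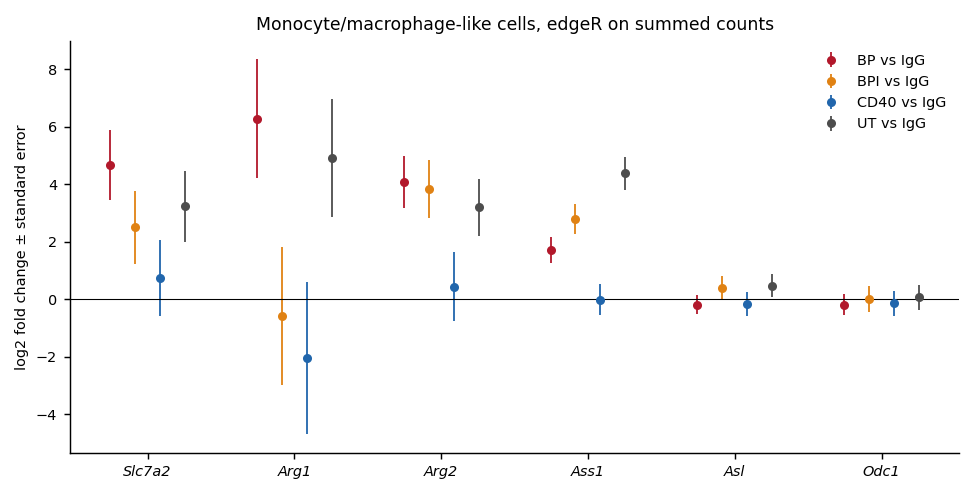
Log2 difference in level from IgG in monocyte/macrophage-like cells for 6 members, with points for the edgeR estimate and bars for 1 standard error, in colours by comparison. Nos2 is left out because both IgG libraries are at 0. Ass1 is above 0 for BP, BPI and UT (1.71, 2.79 and 4.38), whereas the Arg1 estimates have wide bars, as at 6.28 ± 2.06 for BP.

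Levels were also read as the share of cells with at least 1 UMI. Arg1 was in 20.6% of monocyte/macrophage-like cells in UT, 6.41 and 7.35% in IgG, 77.9 and 2.26% in BP, 1.87% in BPI and 4.71% in CD40. In T-like cells, which should lack Arg1, the shares were 1.09, 2.56, 0, 10.2, 0, 0.335 and 0.775% in library order. The median UMIs per cell were 4612 to 16777.5 in monocyte/macrophage-like and 2391 to 6089 in T-like cells. With every cell thinned to 1000 UMIs, the Arg1 shares were 8.84% in UT, 2.56 and 0% in IgG, 57.9 and 0% in BP, 0.468% in BPI and 1.18% in CD40. Those of T-like cells were then 0.725, 2.56, 0, 1.70, 0, 0.335 and 0%, so that outside UT and BP_1 the thinned shares lay close to those of T-like cells.

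Nos2 was in 26.0% of monocyte/macrophage-like cells in UT, 15.5 and 2.63% in BP_1 and BP_2, 18.1% in BPI and 0.588% in CD40. In IgG it was in 0 of 78 and 0 of 68 cells, which allows a share of up to 4.62 and 5.28% (exact 95% bounds, counting error only), so the 2.63% of BP_2 could not be told from IgG at this depth. T-like cells had 0 to 1.39%. Thinned to 1000 UMIs the Nos2 shares were 5.89% in UT, 4.75 and 1.504% in BP, 7.96% in BPI and 0% in IgG and CD40.

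Ass1 was found in a large share of monocyte/macrophage-like cells in every library. The shares were 91.2% in UT, 43.6 and 42.6% in IgG, 57.0 and 57.5% in BP, 66.9% in BPI and 47.1% in CD40. T-like cells had Ass1 in 33.7, 5.13, 14.0, 21.9, 5.70, 4.52 and 13.2% of cells, lower in each library. Thinned to 1000 UMIs the shares of monocyte/macrophage-like cells were 53.9, 7.69, 7.35, 15.2, 18.4, 26.1 and 4.71%, and those of T-like cells 12.7, 2.56, 3.51, 4.11, 3.07, 2.01 and 2.33%. The order UT, BPI, BP and then IgG and CD40 was the same with and without thinning, apart from CD40, which moved below IgG.

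The mean share of Ass1 cells was 57.3% ± 0.33 (SD, n = 2) in BP and 43.1% ± 0.67 in IgG, a difference of 14.2 points. In the shared cluster alone BP was at 50.7% ± 9.71 and the difference was 7.53 points. The corresponding difference was 33.2 points for Arg1, which becomes −4.63 points without BP_1, and 9.05 points for Nos2, which becomes 2.63 points without BP_1. With 2 libraries against 2, the two-sided exact permutation test cannot give a p below 0.333. That p was reached for Ass1 and Nos2 (0.5 after Benjamini-Hochberg adjustment over the 3 genes), and it was 1 for Arg1.

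**Figure D3:**
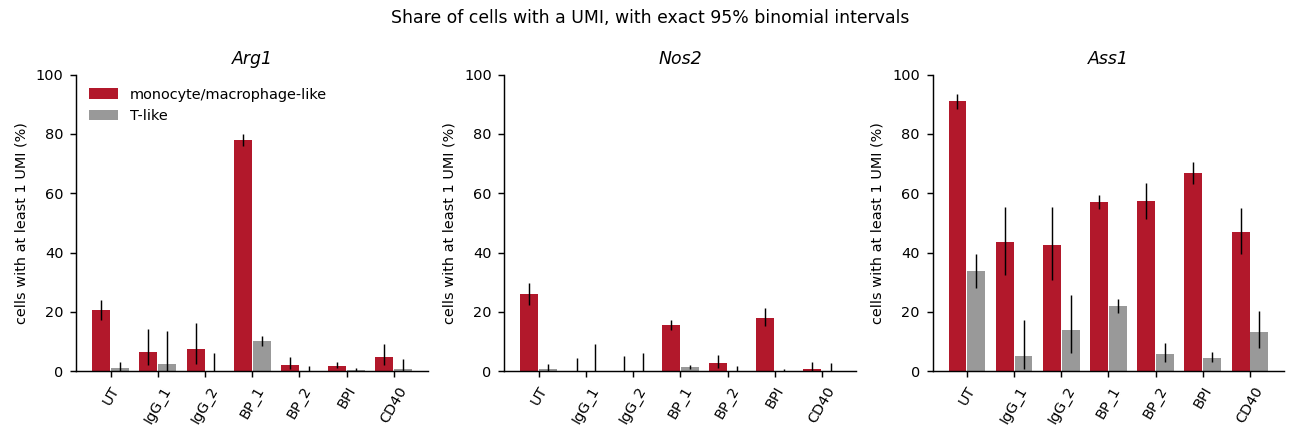
Share of monocyte/macrophage-like cells with at least 1 UMI of Arg1, Nos2 or Ass1 in each library, in percent, with exact 95% binomial bars for counting error and the share in T-like cells for comparison. Arg1 reaches 77.9% in BP_1 and 2.26% in BP_2, whereas Ass1 is at 57.0 and 57.5% in these libraries.

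Arg1, Nos2 and Ass1 occurred together in single cells as well as apart. Over all libraries 324 monocyte/macrophage-like cells held both Arg1 and Nos2, where 252 would be met if the genes were spread independently in each library, a ratio of 1.29. In UT 57 cells held both, which is 47.9% of the Arg1 cells and 38% of the Nos2 cells, against 30.9 from independence. In BP_1 262 cells held both, which is 93.6% of Nos2 cells but 18.6% of Arg1 cells, against 218. The ratio was 2.00 in the shared cluster, 1.11 in the separate BP_1 cluster and 1.22 after thinning to 1000 UMIs. In BPI 4 cells held both, 3.45% of its Nos2 cells.

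Nos2 and Ass1 were found in the same 472 cells, against 379 from independence, a ratio of 1.25 that was 1.45 after thinning. For Arg1 and Ass1 the numbers were 949 and 932, a ratio of 1.02. Slc7a2 was paired with both in a count added after the values were seen: the ratio was 1.17 with Arg1 (1296 cells, 1200 of them from BP_1) and 1.40 with Nos2 (392 cells). In the shared cluster alone these ratios were 2.21 and 1.89, and after thinning the class to 1000 UMIs a cell 1.23 and 1.81. In UT the thinned ratio of Arg1 with Slc7a2 was 0.771, from 3 cells. These ratios are descriptions: deeper cells hold more of every gene, and cells of a library are not replicates.

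The combinations differed between the libraries that were rich in these genes. In UT 55.1% of the monocyte/macrophage-like cells held Ass1 alone of the 3 genes, 15.9% Nos2 with Ass1, 10.4% Arg1 with Ass1, 9.71% all 3 and 8.15% none. In BP_1 30.1% held Arg1 alone, 33.3% Arg1 with Ass1, 11.6% all 3 and 11.3% Ass1 alone. In BPI 51.5% held Ass1 alone, 14.2% Nos2 with Ass1, 3.28% Nos2 alone and 29.2% none, and all 3 were found in 4 cells. In IgG 53.8 and 51.5% held none of the 3, against 41.4% in BP_2 and 50% in CD40. With or without Arg1, cells with both Nos2 and Ass1 were 25.6% of the class in UT and 14.8% in BPI.

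**Figure D4:**
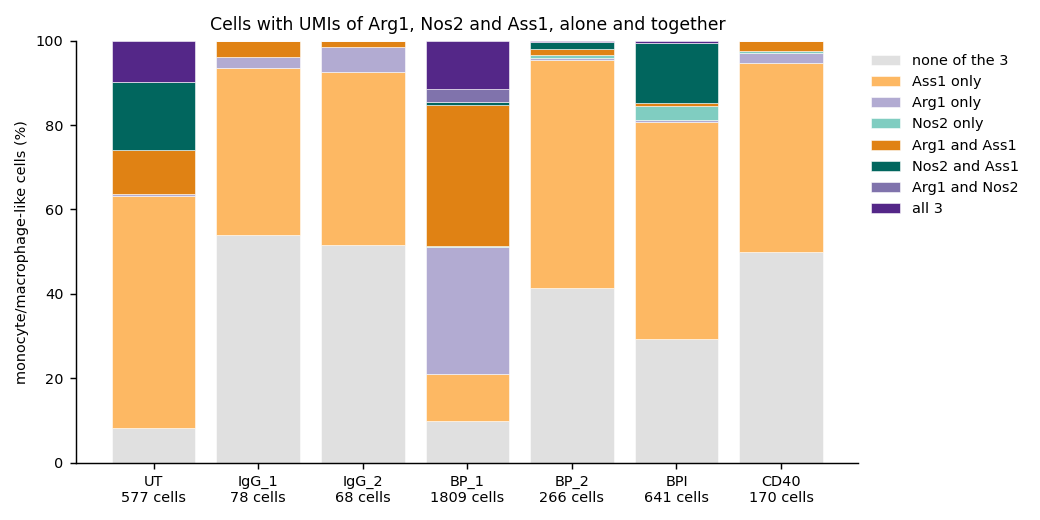
Share of monocyte/macrophage-like cells, in percent, by which of Arg1, Nos2 and Ass1 had at least 1 UMI, as stacked bars that each add to 100% with 1 bar per library. Cells with Arg1 make up most of the BP_1 bar (77.9%), and cells with none of the 3 are 8.15% in UT and 53.8% in IgG_1.

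Sub-clusters of the phagocytes, made without the members, placed the genes more closely. The sub-cluster highest in Ass1, with 986 cells led by the interferon-response genes Rsad2, Isg20 and Isg15 and by Upp1, came mainly from UT (485 cells) and BPI (384). IgG_1, IgG_2 and CD40 gave 19, 1 and 2 of its cells. The sub-cluster held Ass1 at 906 CPM, Nos2 at 97.5 CPM and Arg1 at 231 CPM. Within it Ass1 was at 1139 CPM in UT, 382 CPM in BP_2 and 395 CPM in BPI, so UT was high among like cells too. Nos2 within it was at 74.1, 41.4 and 188 CPM, and Arg1 at 315, 7.30 and 4.97 CPM in the same libraries. Arg1 thus set UT apart from BPI inside this sub-cluster, and Nos2 ran the other way.

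A sub-cluster of 512 cells, 4 of them from BP_1, had less of Ass1, Nos2 and Arg1. Its top 10 genes held Cxcl1, Cxcl2 and Gpnmb and also the neural genes Nrxn3, Dlg2 and Ptprd, whose part in these levels was not tested. Ass1 in it was at 325 CPM in UT, 53.0 and 46.6 CPM in IgG, 158 CPM in BP_2, 220 CPM in BPI and 56.6 CPM in CD40. UT, BPI and BP_2 were again above IgG and CD40. Nos2 was at 1.48 CPM there. A sub-cluster of 215 cells with Ace, Treml4 and Adgre4, genes of patrolling monocytes, had Nos2 at 0 CPM, Arg1 at 14.8 CPM and Ass1 at 88.8 CPM. One of 177 cells with Xcr1, Flt3 and Itgae, genes of cross-presenting dendritic cells, had Ass1 at 321 CPM, and 174 of these cells are counted in the monocyte/macrophage-like class.

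Of the BP_1 cells, 1341 formed nearly all of a sub-cluster led by Ccl8, Retnla, Mrc1 and Chil3. It held Arg1 at 1993 CPM, Slc7a2 at 984 CPM, Ass1 at 159 CPM and Nos2 at 71.9 CPM. Another sub-cluster, of 322 cells with 316 from BP_1, held Arg1 at 1149 CPM, Slc7a2 at 646 CPM, Ass1 at 319 CPM, Nos2 at 124 CPM and Odc1 at 24.0 CPM. The smaller sub-cluster was thus lower in Arg1 and Slc7a2 and higher in Ass1 and Nos2. Both come almost wholly from 1 library, so the library and the cell state cannot be told apart.

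**Figure D5:**
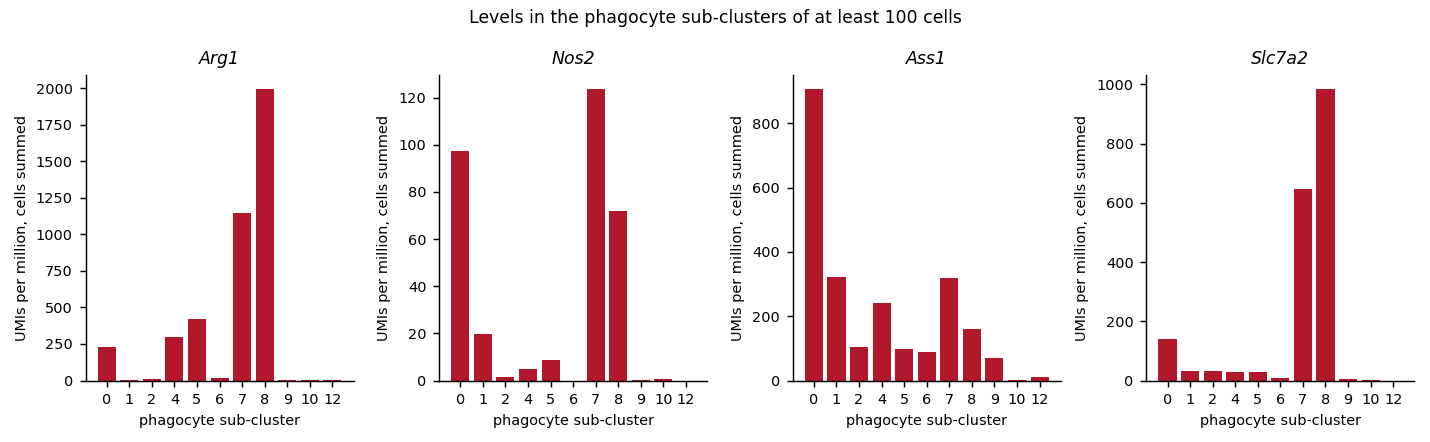
Level in CPM (linear axes from 0, a scale for each gene) of Arg1, Nos2, Ass1 and Slc7a2 in each phagocyte sub-cluster of at least 100 cells, with cells summed over libraries and no error bar. Ass1 is highest in sub-cluster 0 (906 CPM) and Arg1 in sub-cluster 8 (1993 CPM), which is almost wholly BP_1.

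Cells with and without each gene were compared within libraries by lists of state genes. For Ass1, the interferon-gamma list was higher in positive cells in 7 of 7 libraries, by 0.57 ± 0.56 (SD) on the log2 scale, and the hypoxia and glycolysis list in 7 of 7, by 0.39 ± 0.32. For the interferon-gamma list the two-sided exact sign-flip permutation p was 0.0156, the smallest that 7 libraries allow, and for both lists the p adjusted over 18 tests was 0.141. The IL-4 list was higher in Ass1 cells in 6 of 7 libraries, by 0.47, the inflammatory list in 6 of 7, by 0.31, and the C1q list in 1 of 7, with a mean of −0.46 (adjusted p of 0.281, 0.346 and 0.346 by the same exact permutation test). Arg1 and Nos2 had enough positive cells in 3 libraries only (UT, BP_1 and BPI), where no p can fall below 0.25. For Arg1 BPI has 12 positive cells, and its thinned share of 0.468% lay close to the 0.335% of T-like cells. For Arg1 the C1q macrophage list was higher in positive cells in 3 of 3, by 0.53 in UT, 2.14 in BP_1 and 1.08 in BPI, and the monocyte list was lower in 3 of 3, by −1.15, −0.51 and −0.12. The interferon-gamma list was lower in Arg1 cells, by −0.48, and higher in Nos2 cells, by 0.32, in 3 of 3 libraries each. The IL-4 list was higher in Arg1 cells of BP_1 (1.16) and lower in those of UT and BPI (−0.31 and −0.49), and higher in Nos2 cells in 3 of 3, by 0.64. Hypoxia genes were higher with both, by 0.67 for Arg1 and 0.73 for Nos2. Positive cells tend to be deeper, and the part of depth in these differences was not tested. In BP_1 Arg1 was in 84.0% of cells of the separate cluster, where the C1q list summed to 17537 CPM, and in 19.5% of those of the shared cluster, where it summed to 1274 CPM, so that the BP_1 difference also sets these clusters against each other.

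The state lists differed between libraries as well. In library order the interferon-gamma list summed to 6738, 1238, 238, 5099, 3979, 8913 and 407 CPM in monocyte/macrophage-like cells, highest in BPI and UT, where Nos2 and Ass1 were high, and lowest in IgG_2 and CD40. The IL-4 list summed to 867, 300, 125, 4077, 511, 794 and 163 CPM, highest in BP_1 and then UT, as Arg1 was. BPI, however, had nearly as much of the IL-4 list as UT and little Arg1, and BP_2 and BPI had more of the list and less Arg1 than IgG_1. In library order the monocyte list summed to 7203, 3028, 546, 5497, 4556, 7754 and 692 CPM. The list includes Chil3, a lead gene of the separate BP_1 cluster, so the BP_1 sum does not measure monocytes alone. It was 5351 CPM in that cluster and 7497 CPM in the shared cluster of BP_1. The C1q list summed to 17016, 15525, 44209, 16432, 11976, 6002 and 33539 CPM. The part of these lists and of the make-up of the class in the levels of the members was not tested.

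The genes whose counts followed each gene most closely across cells within libraries, among 6054 candidates, had weak mean correlations and are listed as a description. Each library has the same weight in these means, also where few cells had the gene. For Arg1 they were Pde4d (mean r of 0.23), Ccl7 (0.22), Pdpn (0.21), Dab2 (0.19) and Mif (0.19) over 7 libraries. Pde4d was at 0.547 in UT and 0.496 in BP_1, and at −0.0515 in CD40, where 8 cells had Arg1. Ccl7 was highest in IgG_2, at 0.535, where 5 cells had Arg1, and was at 0.203 in UT and 0.275 in BP_1. For Nos2 they were Acod1 (0.25), Upp1 (0.24), Gm15056, AA467197 and Inhba (0.24) over 5 libraries. Acod1 ranged from −0.0197 in CD40, where 1 cell had Nos2, to 0.370 in BPI. For Ass1 they were Il1rn (0.32), Isg15 (0.31), Tspo (0.31), Psme2 (0.30) and Phf11b (0.30) over 7 libraries.

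In microglia-like cells Arg1, Slc7a2, Arg2 and Nos2 were low, and BP_1 was left out because it has 6 such cells. A cluster of phagocytes that no marker list could name lay outside this class, with 256 BP_1 cells. In these the microglial markers summed to 5549 CPM, against 444 CPM in BP_1 monocyte/macrophage-like cells, and Arg1 was at 499 CPM. In the microglia-like class Arg1 was at 0, 1.33 and 4.72 CPM in UT, IgG_1 and IgG_2. It was at 3.98, 3.18 and 6.56 CPM in BP_2, BPI and CD40. In UT, IgG_1, BP_2 and BPI these values rest on 0 to 2 UMIs. In CD40 they rest on 61 UMIs in 59 cells (95% counting interval 5.02 to 8.43 CPM) and in IgG_2 on 35 UMIs (3.29 to 6.56 CPM), against 2.61 and 4.05 CPM in the monocyte/macrophage-like cells of these libraries. Free RNA was estimated at 10.1 and 9.33% of these UMIs. Nos2 was at 0 to 7.96 CPM, and the highest value, in IgG_1, came from 6 UMIs in 2 cells. Arg2 was at 0 to 2.26 CPM and Slc7a2 at 0 to 6.35 CPM, where CD40 had the most UMIs (53, at 5.70 CPM).

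Ass1 in microglia-like cells was at 82.6 CPM in UT, 18.6 and 46.0 CPM in IgG, 1.99 CPM in BP_2, 11.1 CPM in BPI and 48.1 CPM in CD40. BP_2 had a single UMI, against 14 in IgG_1, and UT, IgG_2 and CD40 were the high libraries. The UT value rests on 26 UMIs in 8 of 29 cells. The log2 difference of BP_2 from IgG was −4.11 ± 0.98 (SE; edgeR adjusted p = 0.111), in a fit that called 0.295% of 9149 genes, and none of the 3 members tested. In this class every group but IgG is 1 library, so its p-values assume that each varies as the 2 IgG libraries do. Over the other comparisons it called 1.04% for BPI, 0.0109% for CD40, 0.109% for BPI against BP and 1.27% for UT, again with no member. At an unadjusted p under 0.05 Ass1 passed, 1 of the 3, for BP, where 10.3% of genes did, for BPI (8.25%) and for UT (14.4%). When the unnamed phagocyte cluster was added to the class, its 256 BP_1 cells brought BP_1 into the fit. The difference of BP_1 and BP_2 from IgG was then 0.0652, so both the libraries and the class limit had changed. Free RNA was estimated at 3.38 to 36.1% of the Ass1 UMIs in UT, IgG and CD40, at 57.0% in BPI and at 100% in BP_2. In BP_2 the estimate exceeded the level seen and was capped at 100%, so it is too high there. Among the sub-clusters made up mainly of microglia-like cells, Ass1 was at 68.9 CPM in a sub-cluster of 597 cells with Lpl and Ccl3, at 101 CPM in one of 36 cells, at 10.8 CPM in one of 194 cells and at 0.852 CPM in the P2ry12 and Siglech sub-cluster of 1219 cells. Of the 597 cells 216 came from IgG_2 and 318 from CD40, and 6 from BP_2 and 7 from BPI, so the libraries differ in which sub-clusters make up the class.

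Asl and Odc1 were found in microglia-like cells of every library. Asl was at 38.1, 30.5, 24.1, 11.9, 12.7 and 23.1 CPM, and Odc1 at 76.2, 105, 57.6, 63.6, 111 and 53.4 CPM, in UT, IgG_1, IgG_2, BP_2, BPI and CD40. For Odc1 free RNA was estimated at 21.3 to 89.7% of these UMIs. Asl was lower in BP_2 and BPI than in the rest, and Odc1 followed no order by group.

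Classes were compared over libraries on log2(CPM + 1), with two-sided exact sign-flip permutation tests adjusted over 6 comparisons. Ass1 was higher in monocyte/macrophage-like than in tumour-like cells in 7 of 7 libraries, by 3.13 ± 0.63 (SD; exact p = 0.015625, the smallest possible, adjusted 0.0938). It was higher than in microglia-like cells in 6 of 6, by 2.82 ± 2.45 (exact p = 0.03125, the smallest possible with 6, adjusted 0.0938). This difference was only 0.0190 in IgG_2 and 0.345 in CD40, the libraries with the most microglia-like cells (703 and 848). It was largest in BP_2, at 6.16. Arg1 was higher than in tumour-like cells in 6 of 7 libraries, by 2.98 ± 3.06 (exact p = 0.0469, adjusted 0.0938), and Nos2 in 5 of 7, by 3.01 (exact adjusted p = 0.141). Against microglia-like cells Arg1 was higher in 4 of 6 libraries, by 1.86, and Nos2 in 3 of 6, by 2.04 (exact adjusted p of 0.338 and 0.344). None of the 6 passed after adjustment.

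Tumour-like cells had Odc1, Ass1 and Asl, and little of the other members. Odc1 was at 290 CPM in UT, 187 and 229 CPM in IgG, 270 and 200 CPM in BP, 235 CPM in BPI and 223 CPM in CD40. It was in 85.2 to 93.1% of tumour-like cells, and these cells held 84.8 to 95.7% of all Odc1 UMIs in cells. BP and IgG overlapped, and UT was the highest. Asl was at 27.7, 24.5, 21.7, 18.4, 19.2, 19.5 and 19.7 CPM in library order, with both BP libraries below both IgG libraries, where 14.1% of 20150 genes were. No member had both BP libraries above both IgG libraries in tumour-like cells, where 9.74% of genes did. For BP against IgG edgeR called 0% of genes at an adjusted p and 2.05% at an unadjusted p under 0.05, no member among either, and DESeq2 called 61 genes.

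Ass1 in tumour-like cells was at 94.4 CPM in UT, 21.5 and 5.58 CPM in IgG, 14.1 and 22.4 CPM in BP, 21.4 CPM in BPI and 5.80 CPM in CD40. It was in 65.5% of tumour-like cells in UT, in 8.01 to 25.6% elsewhere. UT stood above all others, as it did in the phagocytes, and IgG_2 and CD40, neighbours by name, were the lowest. The log2 difference of UT from IgG was 2.72 ± 0.88 (SE; edgeR adjusted p = 0.371), in a fit that called 0% of 19956 genes at an adjusted p under 0.05 and 12.6% at an unadjusted p under 0.05. DESeq2 called 4.24% of genes for UT, among them Ass1 with an adjusted p of 0.0457. Free RNA was estimated at 7.36% of the UT value and 2.22 to 11.8% elsewhere. With 1 untreated library, the treatment and the library cannot be told apart.

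Arg1 in tumour-like cells was at 1.41 CPM in UT, 0.945 and 3.60 CPM in IgG, 11.3 and 0.755 CPM in BP, 0.638 CPM in BPI and 4.99 CPM in CD40. The high value of BP_1 went with free RNA at 219 CPM of Arg1, estimated to make up 85.5% of it. The estimate was 100% in UT and 1.44 to 2.78% in the other 5 libraries. The log2 difference of BP from IgG was 1.34 ± 1.28 (SE; edgeR adjusted p = 0.9999), −0.88 with free RNA subtracted and −1.45 without BP_1. Slc7a2 was at 9.32 CPM in BP_1, of which 45.8% was estimated as free RNA, and 0.106 to 2.28 CPM elsewhere. Nos2 was at 0.0587 to 0.594 CPM and Arg2 at 0.413 to 1.37 CPM.

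Of 55 other arginine genes (transport, nitric oxide and its cofactor, urea cycle, polyamines and creatine), 42 could be tested in monocyte/macrophage-like, 35 in microglia-like and 53 in tumour-like cells. None was called at an edgeR adjusted p under 0.05 in any of the 15 combinations of class and comparison, where 0 to 1.27% of all genes were. In monocyte/macrophage-like cells the median log2 difference of the list was −0.14 for BP, −0.25 for BPI, −0.15 for CD40 and 0.01 for UT against IgG. Over all genes tested it was 0.03, −0.01, −0.01 and 0.01. In the other classes the list medians farthest from 0 were −0.38 for BP and 0.43 for BPI against BP in microglia-like cells (all genes −0.04 and 0) and 0.26 for UT in tumour-like cells (all genes −0.06). On UMI counts, which are not divided by length, 5 listed genes had the highest mean level in monocyte/macrophage-like cells. They were Gatm, which starts creatine synthesis, at 1146 CPM (3174 CPM in BP_1), the polyamine regulators Oaz1 at 757 CPM and Sat1 at 722 CPM, the hypusinated factor Eif5a at 530 CPM and the transporter subunit Slc3a2 at 244 CPM. In microglia-like cells the same 5 genes led, with Gatm at 1344 CPM, Sat1 at 739 CPM, Oaz1 at 543 CPM, Eif5a at 433 CPM and Slc3a2 at 248 CPM. In tumour-like cells they were Eif5a at 879 CPM, Oaz1 at 768 CPM, the arginine methyltransferase Prmt1 at 353 CPM, Slc3a2 at 252 CPM and Ddah1, which breaks down inhibitors of nitric oxide synthesis, at 162 CPM.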

How the data were processed

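The authors deposited UMI counts per gene and cell barcode for 7 single-cell 3′ libraries. The submitters' processing notes name Cell Ranger 7.0.1 and mm10, whereas the file headers name an earlier release, and whether counting used strand or included introns is not given in the sources used here. Cells had at least 1000 UMIs, 500 genes and at most 15% mitochondrial UMIs. Doublet candidates (0.8% per 1000 cells, by simulated doublets) were removed. Cells were clustered with scanpy 1.11.5 on 1992 variable genes, 30 components, 15 neighbours and Leiden resolution 1, leaving out the members and the pathway list, and named from marker genes. Counts were summed per library and class. edgeR 4.0.16 (quasi-likelihood, TMM, filterByExpr, Benjamini-Hochberg adjustment over all genes tested) was fitted on 6 libraries, and UT was compared with IgG in a fit that added UT. Groups of 1 library are assumed to vary like IgG and BP, or like whichever of them keeps its 2 libraries. Labels say only that each library pools mice, so p-values measure the spread between pools.

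CPM are UMIs scaled to a common total per library and class. Free RNA was estimated from barcodes of 1 to 100 UMIs. Its part in a class was scaled by tumour markers, or by phagocyte markers in tumour-like cells. These were taken as absent from the cells themselves, and the part was capped at 100%. Intervals (exact, 95%) and floors (3 counts) cover counting error only. A positive cell has at least 1 UMI. Total UMIs per library ranged from 68997476 to 186793886. The statistic was tested on simulated data, with the outcome not given here. DESeq2 1.42.0, other filters, thinning, left-out libraries and other class limits were alternatives. The text names the 7 members, the pathway genes called and the 5 at the highest mean CPM per class, and the 5 genes that correlate best with Arg1, Nos2 and Ass1. Members and lists were chosen with earlier results of these data known. The replicate numbers do not pair the samples.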

Additional observations from a re-analysis of the deposited data

Results flagged for a closer look

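A cluster of 491 phagocytes that no marker list could name lay outside the comparisons, and members were found in it. Ass1 was at 385 CPM in its 122 UT cells (95% counting interval 338 to 437), in 59.0% of them. In IgG_2, the only control library with enough cells (36), Ass1 was at 66.9 CPM. Arg1 was at 499 CPM in the 256 BP_1 cells of the cluster (477 to 522), in 54.3% of them. It was at 0 CPM in IgG_2, where the 36 cells allow up to 19.0 CPM. The free RNA of these libraries held 166 CPM of Ass1 in UT and 219 CPM of Arg1 in BP_1, below both values. In BP_1 the cluster differed from the separate macrophage cluster: Chil3 was at 20.9 against 2683 CPM, Lyz2 at 813 against 4941 CPM, Mrc1 at 38.1 against 1032 CPM and P2ry12 at 289 against 26.0 CPM.

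Nos2 was at 36.7 CPM in 40 astrocyte-like cells of BP_1 (95% counting interval 24.2 to 53.4), against 0 CPM in the control library with enough such cells. The value comes from 27 UMIs in 2 cells, and free RNA of that library held 10.4 CPM of Nos2.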

How the results depend on the processing

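Among 860 alternative values for single members 744 kept their direction and side of the threshold, 55 passed it where the reported value had not, and 61 changed sign. Over the left-out libraries the BP difference of Arg1 ranged from −0.67 to 7.75 in monocyte/macrophage-like and from −1.45 to 2.46 in tumour-like cells (−0.88 with free RNA subtracted), its share difference from −4.63 to 71.1 points and its IL-4 list value from −0.40 to 0.43, each lowest without BP_1. The monocyte list of Nos2 ranged from −0.0353 to 0.44, lowest without BPI. With UT pooled into the control, Ass1 was −1.21 for BP and −0.13 for BPI. With the unnamed cluster added, which also brought BP_1 into the class, Ass1 of microglia-like cells was 0.0652 for BP. Its difference between phagocyte classes was then 2.21 (exact adjusted p = 0.0469). The shared-cluster and unnamed-cluster settings were chosen after seeing the data.

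In monocyte/macrophage-like cells DESeq2 called 131, 205, 3, 1 and 225 genes for BP, BPI, CD40, BPI against BP and UT, and no low-count filter gave 437, 619, 47, 66 and 659. Left-out libraries gave 0 to 416 (416 without BP_2, 119 without IgG_1), 0 to 424, 0, 0 to 91 and 2 to 1172. Subtracting free RNA gave 52 for BPI and 25 for UT, keeping doublets 3 and the shared cluster alone 28 for UT. In tumour-like cells DESeq2 called 61 for BP, 6 for BPI and 846 for UT, and left-out libraries 0 to 1 for BP and 0 otherwise. In microglia-like cells the counts were 27, 95, 1, 10 and 117. They became 105, 226, 66, 44 and 302 without the filter, 0 in each with the unnamed cluster added, and 680, 13, 0, 554 and 9 with free RNA subtracted. DESeq2 gave 45 for BPI, 0 for CD40 and 46 for UT. Pooling UT gave 0, 1, 0 and 0 for the first 4, and keeping doublets 2 for BP and 0 for CD40. Leaving out BP_2 gave 198 for BPI, 27 for CD40 and 147 for UT.

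With the replicate block 0 genes were called for BP in monocyte/macrophage-like and in tumour-like cells, so the block did not move the count of calls. Same-numbered libraries deviated in opposite directions (r of −0.221 over 9588 genes and −0.700 over 18625), and the crossed pairing called 363 and 0. The 363 were 3.79% of genes in monocyte/macrophage-like cells, with 4 of 7 members among them: Arg2, Ass1, Nos2 and Slc7a2. The labels do not say that the crossed libraries are pairs. No paired analysis was possible in microglia-like cells because BP_1 has too few, and leaving out an IgG library there could not be fitted.

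The overlap of Arg1 and Nos2 was 2.00 in the shared cluster and ranged from 1.21 to 1.86 over left-out libraries, that of Nos2 and Ass1 was 1.61 with at least 2 UMIs, 1.45 thinned and 1.13 to 1.34 over left-out libraries, and that of Arg1 and Ass1 1.01 to 1.07. Over left-out libraries the share differences were 13.7 to 14.6 points for Ass1 and 2.63 to 15.5 for Nos2. The class differences against microglia-like cells were 0.62 to 2.44 for Arg1, 2.16 to 3.39 for Ass1 and 1.08 to 3.08 for Nos2, and against tumour-like cells 2.28 to 3.59, 3.02 to 3.34 and 2.42 to 3.55. The cause of these changes was not tested. With 1 library in UT, BPI and CD40 and 68 to 78 monocyte/macrophage-like cells per IgG library, replicates and cell numbers both limit these comparisons.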

Other observations

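Among the remaining classes, endothelial-like cells held Nos2. It was at 10.4 CPM in UT, 21.9 and 20.3 CPM in IgG_1 and IgG_2, 20.4 CPM in BP_1, 4.36 CPM in BPI and 17.9 CPM in CD40, and 2.70 to 20% of these cells had a UMI. IgG and CD40, where the monocytes and macrophages had little or no Nos2, thus had it in endothelial-like cells. Free RNA held 0, 0.358 and 0.656 CPM of Nos2 in IgG_1, IgG_2 and CD40, and 4.01, 10.4 and 3.58 CPM in UT, BP_1 and BPI. The BPI value rests on 1 UMI, and BP_2 had too few endothelial-like cells.

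Odc1 in endothelial-like cells was at 209 CPM in UT, 273 and 395 CPM in IgG, 144 CPM in BP_1, 161 CPM in BPI and 297 CPM in CD40. Free RNA held 158 to 224 CPM of Odc1, above the endothelial-like value in BP_1 and BPI and below it elsewhere. Slc7a2 was at 16.96 to 43.6 CPM in 5 of these libraries and at 246 CPM in BP_1, whose free RNA held 96.7 CPM.

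Ass1 was highest in UT in several other classes too. In dendritic-like cells it was at 574 CPM in UT and 136 CPM in BP_1, the libraries with enough such cells. In T-like cells it was at 133 CPM in UT and 15.8 to 50.1 CPM in the other 6 libraries, where free RNA held 166 CPM in UT and 10.7 to 37.8 CPM elsewhere.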
